A study of Drosophila melanogaster with 4 samples.

Results

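Broad domains of HP1c were chosen by their width in the authors' combined list of the replicate set, as the enriched regions wider than 5000 bp on any sequence, with rows named as depleted left out. This gave 409 domains among 6891 enriched regions (5.94%, exact 95% binomial interval 5.39 to 6.52). They took 2.76 Mb, or 15.2% of all enriched sequence, and the remaining 6482 regions took 15.4 Mb. The list came from whole Drosophila melanogaster larvae of the third instar, strain Oregon-R with the wild type genotype, by chromatin immunoprecipitation and sequencing (ChIP-seq) with an affinity-purified rabbit polyclonal serum against HP1c. There were 2 HP1c ChIP libraries, each with its own list of enriched regions, and 2 libraries of input DNA of the same strain and stage, whose data were not analysed here. Whole larvae mix many tissues, so a region can hold HP1c from different cells at different places, and this cannot be told apart in the lists.

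HP1 proteins are small non-histone chromosomal proteins with a chromodomain, which can bind methylated histone H3, and a chromo shadow domain, through which they dimerise and recruit partners. HP1a is the main HP1 of pericentric heterochromatin and forms broad blocks there. HP1c is known mainly as a euchromatic member of the family that is found at active genes together with the zinc finger proteins WOC and ROW.

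The width that chose the domains was called from the same 2 libraries as the replicate lists, and a wide region meets more regions of any list. The numbers, scores and overlaps below are therefore descriptions, and no test was made on them. Intervals in brackets are exact Clopper-Pearson 95% intervals over regions and cover counting error only. The depth of the libraries is unknown, since the lists give positions and 1 score per region and no read counts. Positions are those of FlyBase release 5, as in the file headers. No annotation of that release was used here, so domains are named by position and not by gene.

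Most domains were only a little wider than the threshold. The median width was 6079 bp (quartiles 5415 and 7203), against 2203 bp in the remaining regions (quartiles 1899.5 and 2702.5). Of the 409, 191 measured 5001 to 5999 bp, 124 measured 6000 to 7499 bp, 67 measured 7500 to 9999 bp, and 27 (6.60%, 4.40 to 9.46) reached 10000 bp or more. The 3 narrowest domains were 2L 20796222 to 20801222 with 5001 bp, 2R 19269914 to 19274918 with 5005 bp and 3R 5904544 to 5909548 with 5005 bp. The 3 widest regions below the threshold measured 4989, 4987 and 4985 bp, and lay at X 18430652 to 18435640, X 17062490 to 17067476 and 2L 22439178 to 22444162. Each of these 6 regions had a single region of each replicate beneath it. Widths ran on across the threshold without a break, so "broad" here names a range of widths and not a separate class.

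In each replicate a single region lay under most domains. In replicate 1, 311 of the 409 domains (76.0%, 71.6 to 80.1) had exactly 1 region beneath them, where 75.3% of all enriched regions did. In replicate 2, 361 domains (88.3%, 84.7 to 91.2) had exactly 1, where 83.1% of all enriched regions did. The shares of all regions are lowered by regions with no replicate region beneath, 22.5% of them in replicate 1 and 15.7% in replicate 2, whereas every domain had at least 1. Among the 389 regions of 4001 to 5000 bp just outside the rule, 350 (90.0%, 86.5 to 92.8) had exactly 1 in replicate 1 and 362 (93.1%, 90.1 to 95.4) in replicate 2. All 409 domains overlapped a region of both replicates (99.1 to 100), as did 388 of those 389 (99.7%, 98.6 to 99.99), against 4492 of the 6482 remaining regions (69.3%, 68.2 to 70.4) and 71.1% of all enriched regions.

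Several narrower regions lay under a minority of the domains, and the replicates differed in how many. In replicate 1, 98 domains (24.0%, 19.9 to 28.4) had 2 or more regions beneath them, against 52 of the remaining regions (0.802%, 0.600 to 1.05), with 2.18% for all enriched regions. In replicate 2, 48 domains (11.7%, 8.78 to 15.3) had 2 or more, against 39 of the remaining regions (0.602%, 0.428 to 0.822), with 1.26% for all enriched regions. Replicate 1 placed 2 regions under 83 domains, 3 under 14 and 4 under 1. Replicate 2 placed 2 under 44 domains and 3 under 4. Replicate 1 had the larger number under 73 domains (17.8%), replicate 2 under 18 (4.40%), and the number was the same under 318 (77.8%). Over all enriched regions these shares were 7.94%, 13.9% and 78.2%, with regions that had none beneath in a list counted.

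**Figure D1:**
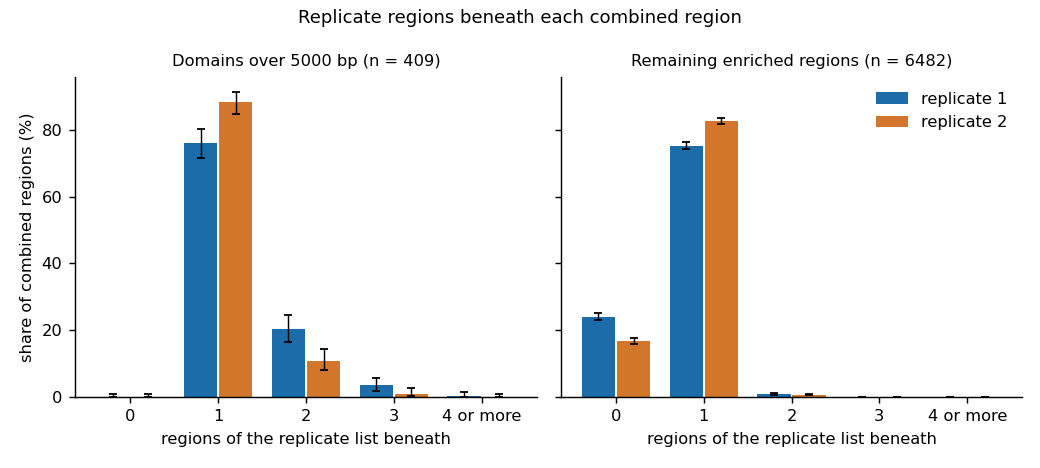
Share of combined regions (%, vertical axis) by the number of replicate regions beneath them (horizontal axis), for the 409 domains (left) and the 6482 remaining regions (right), in replicate 1 (blue) and replicate 2 (orange), with exact 95% binomial intervals. A single region is the commonest case in both panels, 76.0% and 88.3% for domains, and 2 or more regions are seen under 24.0% and 11.7% of domains.

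Counted over both replicates, 294 domains (71.9%, 67.3 to 76.2) had exactly 1 region in each list, where 68.4% of all enriched regions did. Another 67 were split in replicate 1 alone, 17 in replicate 2 alone, and 31 (7.58%, 5.21 to 10.6) in both, where 0.639% of all enriched regions were split in both. Thus 115 domains (28.1%, 23.8 to 32.7) were split in at least 1 replicate, where 2.80% of all enriched regions were. The share was 14.1% in the 389 regions of 4001 to 5000 bp. Split in replicate 1 alone were 1.51% of all enriched regions, and in replicate 2 alone 0.624%. A stricter reading, with a single region over at least 80% of the domain, held for 261 domains in replicate 1 (63.8%), 331 in replicate 2 (80.9%) and 230 in both (56.2%, 51.3 to 61.1). These were near the shares of all enriched regions, 66.0% in replicate 1, 78.8% in replicate 2 and 57.5% in both, which include regions with none beneath. In both replicates it held for 261 of the 389 regions of 4001 to 5000 bp (67.1%, 62.2 to 71.7), and for 3730 of the 4492 remaining regions that both replicates overlapped (83.0%, 81.9 to 84.1).

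The replicate regions filled nearly the whole of most domains. They covered a median of 94.1% of a domain in replicate 1 (quartiles 84.1 and 97.8) and 98.6% in replicate 2 (93.5 and 99.6), and the lowest values were 39.6% and 51.4%. The widest region alone covered a median of 91.4% in replicate 1 and 98.5% in replicate 2. Remaining regions that were overlapped were covered to a median of 95.7% and 98.7%. Domains ended slightly outside the replicate regions, by a median of 78 bp at the start and 72 bp at the end for replicate 1, and 18 and 20 bp for replicate 2. The replicate regions lay wholly inside both ends of 313 domains in replicate 1 and of 204 in replicate 2. They ran past the ends by up to 3657 and 4047 bp.

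Fewer domains were broad by the same width rule in the replicates. A region wider than 5000 bp lay under 244 domains in replicate 1 (59.7%, 54.7 to 64.4), where 3.76% of all enriched regions had one, and under 324 in replicate 2 (79.2%, 75.0 to 83.0), where 4.99% of all enriched regions had one. Both replicates had such a region under 213 domains (52.1%, 47.1 to 57.0), where 3.09% of all enriched regions had one in both. Replicate 2 alone had one under 111, replicate 1 alone under 31, and neither under 54 (13.2%, 10.1 to 16.9). Of all enriched regions, 1.90% had one in replicate 2 alone, 0.668% in replicate 1 alone and 94.3% in neither. Those 54 domains had a median width of 5306 bp and reached 8859 bp, and 27 of them had exactly 1 region in each replicate, which fell short of the threshold. Of the 165 domains without such a region in replicate 1, 80 were split there (48.5%, 40.6 to 56.4). In replicate 2 it was 32 of 85 (37.6%, 27.4 to 48.8). The others had a single region of at most 5000 bp.

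**Figure D2:**
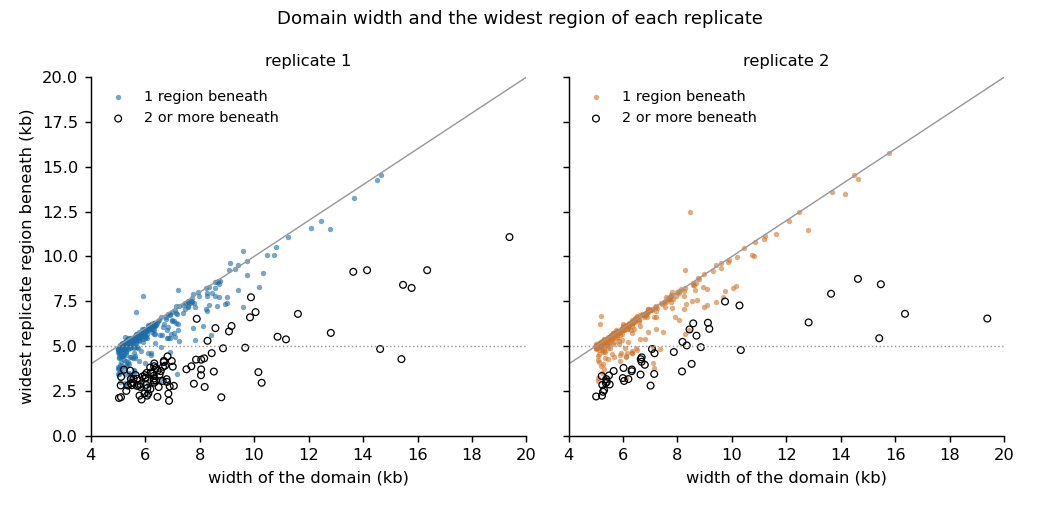
Width of each of the 409 domains (horizontal axis, kb) against the width of the widest replicate region beneath it (vertical axis, kb), for replicate 1 (left) and replicate 2 (right). Filled points are domains with 1 region beneath and open circles those with 2 or more, the diagonal marks equal width and the dotted line 5 kb. Most filled points lie near the diagonal, but for 50 in replicate 1 and 30 in replicate 2 the region covers less than 80% of the domain. A region above the dotted line is seen for 244 domains in replicate 1 and 324 in replicate 2.

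Read the other way, nearly all wide regions of the replicates overlapped a domain. Replicate 1 held 255 regions over 5000 bp, of which 247 (96.9%, 93.9 to 98.6) overlapped a domain. Replicate 2 held 338, of which 327 (96.7%, 94.3 to 98.4) did. The other 8 and 11 all met narrower combined regions, and were up to 8039 and 6974 bp wide. A wide replicate region was cut into 2 or more combined regions in 7 cases in replicate 1 and 9 in replicate 2, and none joined 2 domains. The 523 regions of replicate 1 that met a domain had a median width of 4904 bp, against 2215 bp for its 5063 other regions. The 461 of replicate 2 had a median of 5541 bp, against 2250 bp for its 5485 others.

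Splitting was more frequent in wider domains. In replicate 1, 12.6% (8.22 to 18.1) of the 191 domains of 5001 to 5999 bp were split, 30.6% (22.7 to 39.6) of the 124 of 6000 to 7499 bp, 31.3% (20.6 to 43.8) of the 67 of 7500 to 9999 bp, and 55.6% (35.3 to 74.5) of the 27 of 10000 bp or more. In replicate 2 the shares were 6.81% (3.67 to 11.4), 11.3% (6.31 to 18.2), 17.9% (9.61 to 29.2) and 33.3% (16.5 to 54.0). The narrowest class of domains was near the 389 regions of 4001 to 5000 bp just outside the rule, of which 10.0% were split in replicate 1 and 6.68% in replicate 2. Even among domains of 10000 bp or more, 26 of 27 had a region over 5000 bp in replicate 2 and 23 of 27 in replicate 1.

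**Figure D3:**
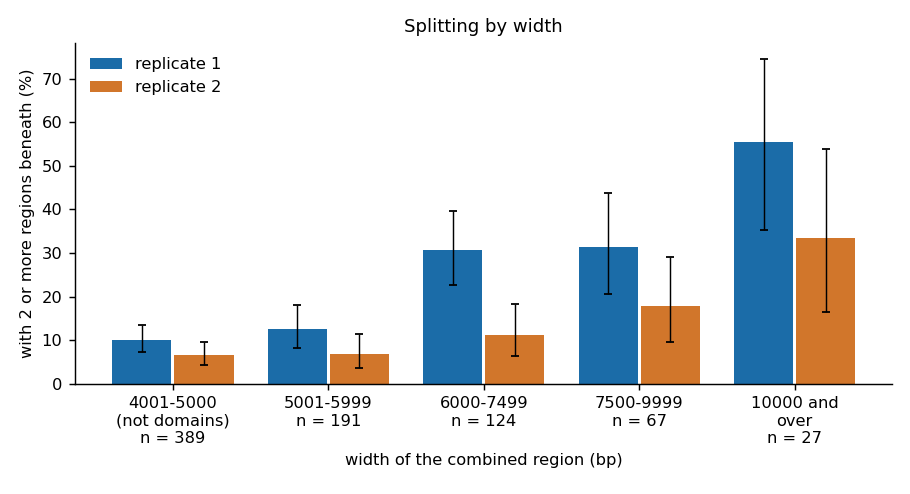
Share of combined regions with 2 or more replicate regions beneath (%, vertical axis) by width class in bp (horizontal axis), in replicate 1 (blue) and replicate 2 (orange), with exact 95% binomial intervals. The share is 10.0% and 6.68% just below the domain threshold, and 55.6% and 33.3% in domains of 10000 bp or more.

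The gaps between regions of a split domain were short. Replicate 1 left 114 gaps in 98 domains, with a median of 356 bp (quartiles 104.75 and 809.5, range 5 to 2814), and 69 of them were under 500 bp. Replicate 2 left 52 gaps in 48 domains, with a median of 199.5 bp (quartiles 85 and 485, range 2 to 2108), and 40 of them were under 500 bp. Many gaps were not shared. Of the gaps of replicate 1, 86 (75.4%) lay wholly inside a region of replicate 2, and 23 (20.2%) met a gap of replicate 2 in the same domain. Of the gaps of replicate 2, 28 (53.8%) lay wholly inside a region of replicate 1 and 23 (44.2%) met a gap of it. The authors' score of the strongest and weakest piece of a domain differed by a median of 0.83 in replicate 1 (quartiles 0.34 and 1.30) and 0.76 in replicate 2 (0.40 and 1.38). Taken as highest minus lowest, this difference is never negative, and it was not compared with neighbouring regions outside domains.

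The 10 widest domains showed both forms. The widest lay on chromosome 4 at 71810 to 91186 and measured 19377 bp, with a score of 2.14. Replicate 1 placed 2 regions there, of 6930 and 11081 bp, and replicate 2 placed 3, of 6539, 6240 and 4504 bp. The gap of replicate 1, 423 bp long, met the 430 bp gap of replicate 2 at nearly the same place, and the other break was in replicate 2 alone.

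The next, 3R 10102668 to 10119022 with 16355 bp and a score of 1.31, had 3 regions in each replicate, but with breaks at different places. The pieces of replicate 1 measured 9236, 4630 and 1589 bp and scored 1.53, 0.47 and 0.40, and those of replicate 2 measured 4059, 3865 and 6802 bp and scored 2.27, 1.37 and 0.87. In both replicates the score was highest in the piece that began the domain. The domain X 7588910 to 7604378, of 15469 bp, was the clearest case of a shared break. It had pieces of 5539 and 8417 bp in replicate 1 and 5541 and 8450 bp in replicate 2, with a gap of 417 bp in replicate 1 and 415 bp in replicate 2.

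Unbroken regions lay under 3 of the 10 in both replicates. On 2R, 17587262 to 17601908, a domain of 14647 bp was covered by a region of 14529 bp in replicate 1, the widest of that list, and by one of 14310 bp in replicate 2. On X, 8782128 to 8796622, the domain measured 14495 bp and the regions 14273 and 14535 bp. Also on X, 17183804 to 17197486, the domain measured 13683 bp and the regions 13247 and 13612 bp. These 3 domains scored 2.38, 2.14 and 1.32.

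The other wide domains lay on unassembled or heterochromatic sequence. The scaffold 3LHet, a piece of assembled heterochromatin of chromosome arm 3L, held 3 of the 10. At 2179916 to 2195698, with 15783 bp, replicate 2 had its widest region, of 15774 bp, where replicate 1 had 2 regions 309 bp apart. At 2229966 to 2245374, with 15409 bp, both had 3 regions, which covered 54.5% of the domain in replicate 1 and 79.6% in replicate 2. At 2391070 to 2405696, with 14627 bp, replicate 1 had 3 regions over 69.9% and replicate 2 had 2 over 79.2%. The last of the 10, on the unplaced collection U at 3435494 to 3449642, measured 14149 bp. Replicate 1 had 2 regions there, 2814 bp apart, its largest gap in any domain, and replicate 2 had 1 over 95.3%. How the authors placed reads from repeats on such sequence is not stated, and its part in these values was not tested.

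**Figure D4:**
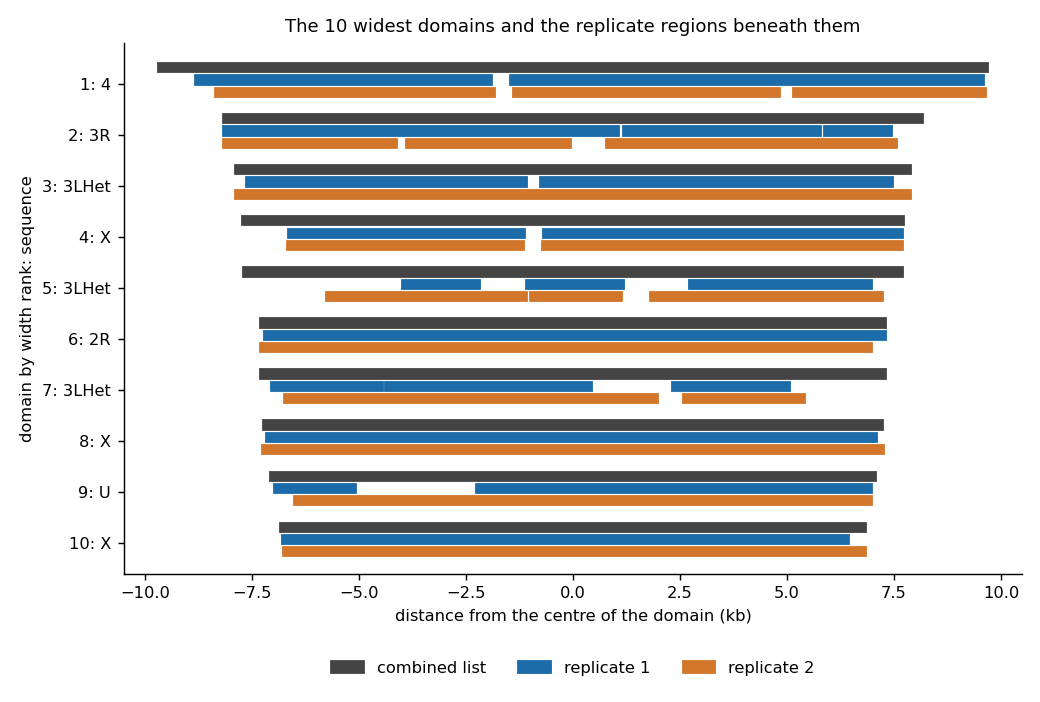
The 10 widest domains in order of width, each drawn as distance in kb from its centre (horizontal axis), with the combined domain in grey, the regions of replicate 1 in blue and those of replicate 2 in orange, labelled by rank and sequence. The domains ranked 6, 8 and 10 are single regions in both replicates, and rank 4 has its break at the same place in both.

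The largest number of regions under a domain was 4, at 3R 11726236 to 11735032, which measured 8797 bp and scored 1.56. Replicate 1 listed 4 regions of 2125, 2045, 2148 and 2147 bp there, each about as wide as a typical region of its list, with gaps of 45 to 209 bp. Replicate 2 listed 1 region of 8749 bp over 99.5% of the same domain. The replicates thus gave opposite answers at this place.

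Domains scored above most regions, and close to regions slightly narrower than themselves. The median score was 1.91 (quartiles 1.45 and 2.38), against 1.68 in the 389 regions of 4001 to 5000 bp (1.15 and 2.35) and 0.72 in all remaining regions (0.34 and 1.60), and 393 of the 409 lay in the upper 50% of the combined list. Domains made up 11.4% of the highest score decile, 16.4% of the ninth and 15.7% of the eighth, and none lay in the lowest 4. Their share of the whole list was 5.94%. Among the 100 highest scores 7 belonged to domains, near that share, and the best rank was 37. Among the domains, which span only the upper end of the widths because width chose them, the Spearman rho of width with score was 0.02 and Pearson r -0.02 (n = 409 regions of the same libraries). Over all 6891 enriched regions rho was 0.76 and r 0.46, so score rose with width in the list as a whole. The regions of replicate 1 under domains had a median score of 1.69, against 0.88 elsewhere, and those of replicate 2 had 2.05, against 1.06 elsewhere.

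The 5 highest-scoring domains each had a single region in both replicates. The highest lay on 3LHet at 1393676 to 1399310, with 5635 bp and a score of 3.65, and its regions scored 4.01 in replicate 1 and 3.62 in replicate 2. Then came 3 domains on X, at 19556050 to 19563784 (score 3.63), 2027448 to 2033532 (3.61) and 9475342 to 9480800 (3.56). The fifth was 2R 19863686 to 19869074, which scored 3.51. The 5 lowest scores were 0.55 to 0.61. They belonged to chromosome 4 1260252 to 1265266, 3LHet 1565246 to 1571740, 3L 817254 to 825696 and, on 3R, 19046828 to 19052018 and 5173258 to 5180270. Of these 5, 4 were split in at least 1 replicate.

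Over the whole set, the 31 domains split in both replicates were 7867 bp wide at the median and scored 1.77. The 84 split in 1 replicate were 6392 bp wide and scored 1.62. The 294 with a single region in each list were 5898 bp wide and scored 2.04, medians in each case. Split domains were thus wider and had lower scores, and the ranges overlapped widely, from 0.61 to 3.12 in the 31 and from 0.60 to 3.65 in the 294.

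Domains were unevenly shared between the chromosomes. Chromosome 4, the small dot chromosome, had 26 domains among its 104 enriched regions (25.0%, 17.0 to 34.4), against 5.38% (4.85 to 5.96) of the 6595 regions on the 5 main arms. Its domains took 14.4% of its length and had a median width of 7006 bp. In replicate 1, 22.2% of chromosome 4 regions were over 5000 bp, against 4.05% on the main arms, and replicate 2 gave 33.3%, against 5.11%. The remaining regions on chromosome 4 were weak, with a median score of 0.37, while its domains had a median of 2.09.

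On the 6 scaffolds of assembled heterochromatin, 25 of 123 enriched regions were domains (20.3%, 13.6 to 28.5). These comprised 9 on 2RHet, 9 on 3LHet, 5 on 3RHet and 2 on 2LHet, with none on XHet or YHet, which held 8 and 4 enriched regions. Regions over 5000 bp made up 19.3% of what replicate 1 listed on the scaffolds, and 26.4% for replicate 2. The scaffolds were thus sparse in enriched regions, with 13.3 per Mb against 55.4 on the main arms, but had about as many domains per Mb, 2.69 against 2.98. Their domains were covered by replicate regions to a median of 85.1% in replicate 1 and 89.0% in replicate 2, below the 95.0% and 98.9% of main arm domains.

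X held 108 domains, or 4.82 per Mb, against 2.56 per Mb on the 4 autosomal arms together, a ratio of 1.88. For regions over 5000 bp in the replicates the ratio was 1.95 in replicate 1 and 2.11 in replicate 2, and for all enriched regions it was 1.25 in the combined list. Of the enriched regions on X, 7.29% (6.02 to 8.73) were domains, against 4.83% (4.26 to 5.45) on the autosomal arms. The autosomal arms ranged from 4.06% on 3R to 5.48% on 2L. The share of domains split on X, 21.3% in replicate 1 and 10.2% in replicate 2, was near that on the autosomal arms, 25.5% and 11.7%. The sex of the larvae and gene density were not analysed here, and with 1 X and 4 autosomal arms no test was made.

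**Figure D5:**
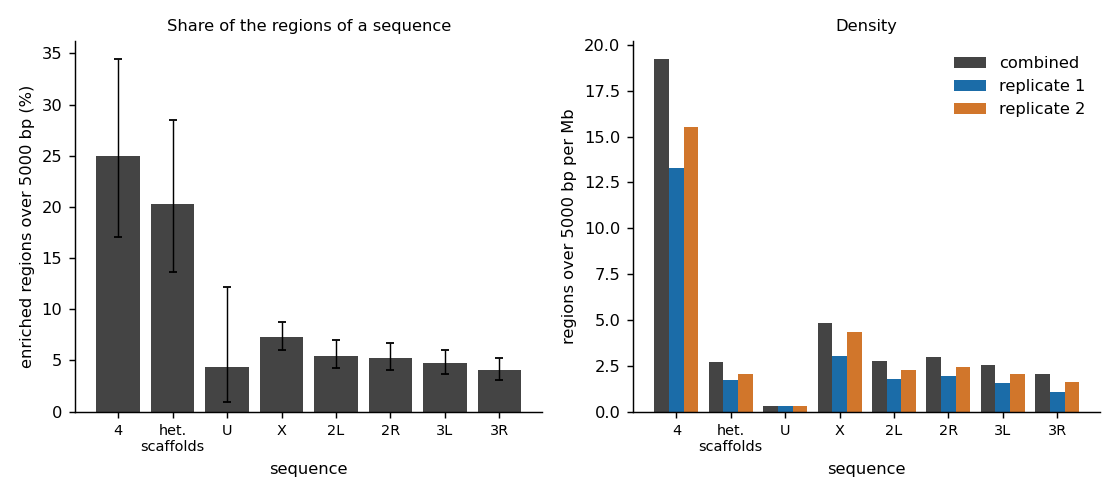
Left, share of the enriched regions of each sequence that are wider than 5000 bp (%, with exact 95% binomial intervals). Right, regions wider than 5000 bp per Mb in the combined list (grey), replicate 1 (blue) and replicate 2 (orange), with the 6 heterochromatin scaffolds pooled. Chromosome 4 is highest in both panels, with 25.0% and 19.2 domains per Mb, and the scaffolds are high in share, at 20.3%, but not in density.

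Within the main arms, domains were most frequent near the centromere on chromosome 2. The window of 1 Mb with most domains was 2L at 22 to 23 Mb, where 12 of 39 enriched regions were domains, followed by X at 13 to 14 Mb with 10 of 95, X at 17 to 18 Mb with 10 of 83 and 2R at 1 to 2 Mb with 10 of 44. Release 5 numbers 2R and 3R from the centromere and the other main arms towards it. The following distance was chosen after these windows had been seen. Within 2 Mb of the centromeric arm end, 50 of 401 enriched regions were domains (12.5%, 9.40 to 16.1), against 305 of 6194 (4.92%, 4.40 to 5.49) elsewhere on the arms. Replicate 1 on its own had 10.9% of its regions over 5000 bp near that end and 3.64% elsewhere, and replicate 2 had 11.8% and 4.70%.

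The arms differed in this. Near the centromere 21.3% (12.9 to 31.8) of the regions on 2L and 22.1% (13.9 to 32.3) of those on 2R were domains, against 4.30% and 3.96% elsewhere on these arms. On 3L the share was 10.4% (3.47 to 22.7), against 4.49% elsewhere, and on X it was 9.84% (3.70 to 20.2), against 7.18%. On 3R it was 2.38% (0.494 to 6.80), against 4.22% elsewhere, so the excess was not seen on each arm.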

How the data were processed

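Each of the 2 HP1c ChIP libraries has a list of enriched regions deposited by the authors, and a combined list covers the replicate set, so the combined list is no independent sample. Reads were aligned with Bowtie 0.12.7, per the submitters' processing notes, to FlyBase release 5, per the file headers. Not given in the sources used here are the region caller and threshold, the use of the input libraries, how replicates were joined, and the scale of the score. Each region carries a score deposited by the authors, used to describe, rank and filter regions within a list. Of the 6902 combined rows, 11 named as depleted were left out.

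A domain was an enriched combined region wider than 5000 bp. A replicate region lay under a region when they shared at least 1 bp. Shares have exact Clopper-Pearson 95% intervals. The overlap step was tested on simulated lists. The text names the 10 widest domains, the 5 highest and 5 lowest by score, those with most replicate regions and those nearest the threshold. Domains and comparisons were chosen with earlier results of these data known. The labels do not state whether the replicates are separate larval collections, so their spread may be technical. Computations used Python 3.11.15, pandas 2.3.3 and scipy 1.17.1.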

Additional observations from a re-analysis of the deposited data

How the results depend on the processing

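Of 72 values recomputed under alternatives, 55 moved by no more than the spread between replicates, the binomial interval or, for the number of domains, 1.5 times, and 17 moved further. Values from 1 replicate alone could not move further than that spread, which was the standard deviation of the same 2 replicates. The X ratio and the chromosome 4 share also could not change on the main arms and chromosome 4 only. The 55 include these values, so the count is no measure of stability. Averaged over replicates, 82.2% of domains had 1 region beneath and 17.8% had 2 or more. Merging replicate regions less than 500 bp apart gave 93.3% and 6.72%. After merging, 71.1% of wide replicate regions met a domain in place of 96.8%. Merging only widens regions, so this share also counts regions that passed 5000 bp by joining, and their part was not tested. In the upper 50% of each replicate list by score, 7.21% had 2 or more and 8.44% had none, which removing regions helps to give. Of wide regions in these upper lists, 97.1% met a domain, and the cause was not tested. With domains wider than 4000 bp there were 798, of which 0.0627% had no region, and the median score was 1.81. Of replicate regions over 4000 bp, 97.1% met one of these domains. With domains wider than 7500 bp there were 94 among all 6891 enriched regions, in place of 409. Of these 94, 69.7% had 1 region and 30.3% had 2 or more, and 97.0% of replicate regions over 7500 bp met one. The X ratio was then 1.46, and 9.62% of chromosome 4 regions were domains in place of 25.0%, with fewer domains in the whole list too. On the main arms and chromosome 4 only, 96.6% of wide replicate regions met a domain, and the cause was not tested. Leaving out either replicate gave 76.0% to 88.3% for 1 region, 11.7% to 24.0% for 2 or more, 59.7% to 79.2% for a region over 5000 bp, 94.1% to 98.6% for length covered, 91.4% to 98.5% for the widest region and 96.7% to 96.9% for wide regions in domains. The share of domains near the centromere was 15.5% within 1 Mb and 9.42% within 3 Mb, both chosen after seeing the data. No paired analysis was possible because the results come from no test and the input libraries, which share the replicate numbers, have no list here. With the number of reads unknown, how depth bears on the additional breaks of replicate 1 was not tested.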

Other observations

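Domains lay among other enriched regions. The nearest enriched region was a median of 1987 bp away (quartiles 787 and 4439), against 2701 bp (972 and 6671) for the remaining regions and 2081 bp for those of 4001 to 5000 bp. The nearest other domain was a median of 56.4 kb away (quartiles 18.4 and 199), and 71 of the 409 domains had another within 10 kb.

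At 4 places, chosen after their values were seen, 2 domains lay within 1 kb of each other. On chromosome 4, domains of 9077 and 6641 bp were 15 bp apart and together ran from 1070510 to 1086242. Also on chromosome 4, domains of 6321 and 7097 bp were 611 bp apart, at 323558 to 337586. On 2R, domains of 7111 and 9595 bp were 611 bp apart, at 1136922 to 1154238, and span 17317 bp. On 3R, domains of 5625 and 5545 bp were 511 bp apart, at 23743920 to 23755600. No region of either replicate crossed any of these 4 gaps.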
